A study of Mus musculus with 38 samples.

Results

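The refeeding response was examined in the livers of LIRFKO mice, in which floxed alleles of the insulin receptor (Insr) and of the transcription factor FoxO1 (Foxo1) were both deleted by Cre recombinase under the albumin promoter, which is active in hepatocytes. The members are the 7 liver libraries whose titles name the double knockout as fasted or refed, 3 fasted mice (titled IRF.KO_ followed by Fast_518, Fast_519 and Fast_525) and 4 mice refed for 6 h after a fast (Refed_468, Refed_469, Refed_478 and Refed_524), out of 38 libraries in the series, 37 of which the labels place in 11 groups. Each library is 1 mouse and 1 dye channel of a two-colour Agilent array, and its values are log2 intensities. All mice were males aged 11 to 12 weeks of a mixed strain (FVB/N and C57Bl/6) on regular feed, and the labels describe the fast both as overnight and as 24 h, which was not settled. The responses set beside it were those of LIRKO mice, which lack the hepatocyte insulin receptor and keep FoxO1 (3 fasted, 4 refed), and of floxed control mice: IR floxed (4 fasted, 4 refed) and IR/FoxO1 floxed (3 fasted, 3 refed). The glucose-treated LIRFKO mice share the 3 fasted libraries and were not compared with the refed ones here.

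Feeding raises insulin, and hepatocytes receive it directly from the portal vein. Insulin acts through its receptor and the kinase AKT, which phosphorylates FoxO1 and keeps it out of the nucleus, and it also favours SREBP transcription factors, which drive the genes of fatty acid and cholesterol synthesis. In fasted liver FoxO1 supports genes of glucose production such as G6pc and Pck1. A liver without both proteins lacks the direct insulin signal and this target of it, but still receives nutrients, gut hormones, glucocorticoids and nerve signals that change with a meal.

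Insr lay between 5.96 and 6.81 log2 in the 7 libraries and Foxo1 between 6.47 and 7.12. Over all LIRFKO libraries, glucose-treated ones included, Foxo1 ran from 6.07 to 7.12, below every LIRKO library (9.16 to 10.58) and every IR floxed library (9.14 to 10.91). Insr in LIRFKO (5.96 to 6.81) was below IR floxed (7.77 to 9.05) and overlapped LIRKO (6.30 to 7.81). Among IR/FoxO1 floxed libraries Foxo1 ran from 6.77 to 10.57. The lowest, the library labelled IRF.fl_Fast_523, a fasted IR/FoxO1 floxed mouse, had Foxo1 at 6.77 and Insr at 6.90, against its label, so the main values of that genotype are also given without it. Pairs of the 7 libraries correlated at 0.982 to 0.994 over 22485 genes, and the mean of the hepatocyte markers was 15.2 to 15.3 in all 7. In bulk liver, fewer cells of a type and less RNA per cell cannot be told apart.

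Refed_478 stood apart. Pancreatic acinar genes, which encode digestive enzymes, averaged 9.90 log2 over 27 measured markers in Refed_478 and 5.77 to 5.87 in the other 6 libraries. The trypsinogens Try4 and Try5, close copies whose probes may share signal, were at 13.3 and 13.1 in Refed_478. In the other 6 libraries Try4 lay between 5.43 and 5.72 and Try5 between 5.28 and 5.41. Ctrb1, a chymotrypsinogen, was at 13.2 in Refed_478 and 7.05 to 7.48 elsewhere, and the proenzymes Cpa1, Cpb1 and Prss2 were at 11.9, 11.6 and 11.4 in Refed_478. Refed_478 was the highest of the 7 for 26 of the 27 markers, and 37 genes in all exceeded the median of the other 6 by more than 2 log2 in it, 22 of them acinar markers. None of the 27 markers passed the refeeding test, and their median change was 0.97 log2 with Refed_478 and -0.02 without it. Refed_478 also had the lowest of the 4 refed values for 110 of the 222 genes called higher and the highest for 67 of the 182 called lower. Elsewhere in the series the highest acinar means were 9.29 and 8.31, in the libraries IR.fl_GTT_659 and IR.fl_Fast_486 on the same slide as Refed_478, and the partner library on its own array was at 6.54. Whether a call held without Refed_478 is given with each gene, and the source of the acinar RNA was not tested.

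**Figure D1:**
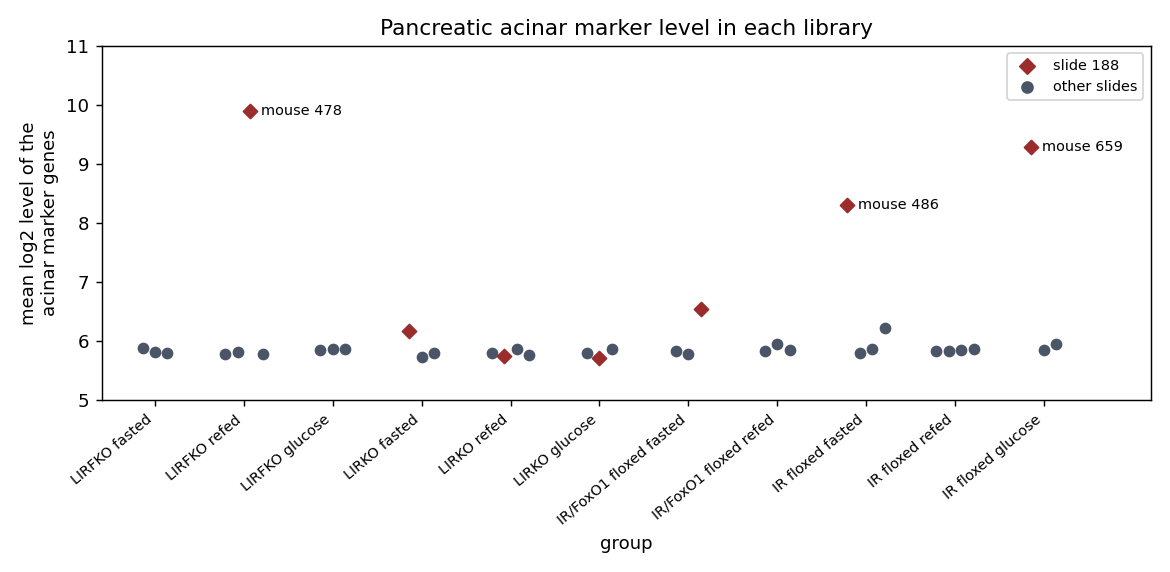
Mean log2 level of 27 pancreatic acinar markers in each library of the 11 groups. Among fasted and refed LIRFKO libraries, Refed_478 is at 9.90 and the other 6 lie between 5.77 and 5.87.

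Of the 22485 genes tested with limma over all 37 grouped libraries, 404 changed on refeeding in LIRFKO at a Benjamini-Hochberg adjusted p under 0.05, which is 1.80% of genes. Of these, 222 were higher after refeeding (0.987%) and 182 lower (0.809%), and 50 rose and 40 fell by at least 2-fold. The median change of all genes was -0.002 log2. The 4 refed libraries did not overlap the 3 fasted ones for 376 of the 404, and for 2605 of all genes (11.6%). Called genes had a median absolute change of 0.66 log2. At the threshold lay Arpc5l (0.52 ± 0.14, SE, adjusted p = 0.0497, lost without any 1 library, up to 0.189) just inside and Brpf3 (-0.41 ± 0.11, adjusted p = 0.0501) just outside. The call depended on single mice: leaving out 1 of the 7 libraries left between 51 genes called higher (without Fast_525) and 209 (without Refed_478), and between 55 called lower (without Fast_525) and 146 (without Refed_469), and leaving out 1 library of another genotype left 184 to 247 higher and 147 to 199 lower. Of the 404, 44 genes passed without each of the 7 in turn, 19 higher and 25 lower, and 274 passed without Refed_478. A fit of the 7 libraries alone, which allows no block for shared arrays, called 32 genes, 23 of them among the 404. In what follows, changes are log2 differences ± SE, every adjusted p is from the limma fit over all genes, and for each called gene the libraries are named whose omission took the adjusted p to 0.05 or above, with the highest value reached. A gene whose rise or fall on refeeding is given below with its adjusted p and no such remark passed without each of the 7 libraries in turn. Fasted libraries lay on slides 184, 185 and 187 and refed ones on slides 184, 186 and 188. Only slide 184 held both, with mice Fast_519 (Cy5) and Refed_524 (Cy3) on 1 array. Within that array feeding and dye cannot be told apart, and its change is a plain difference with no dye term. A set of 64 called genes was examined under each alternative, namely those with values given below and some members of the further families. All 64 changed within that array in the direction of the fit. Both mice are among the 7 libraries that made the calls, so this sign was largely set in advance and is no separate check. For 31 of the 64 the change within the array differed from the fit by at least the SD of the refed mice. Of the 64, 11 passed in the fit of the 7 libraries alone. Without the dye term Idi1, Mvk, Elovl6, Fbxo32, Mt1, Cebpd, Angptl4, Prodh, Pde5a, Ddost and Mcm2 were lost, with adjusted p from 0.0515 (Pde5a) to 0.0781 (Elovl6).

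The promoters of 5 called genes show the letters that the pathway factors are known to read, and they are printed because these are called genes whose window holds the motif, so the matches chose them. Sequences are RefSeq's on GRCm38.p6, the 250 bases before the annotated start, all on the plus strand: Hmgcs1 at chr13:119690101-119690350, Creld2 at chr15:88819396-88819645, Hspa5 at chr2:34771840-34772089, Pdia6 at chr12:17266339-17266588 and Mt2 at chr8:94172368-94172617. Capitals mark the sterol response element TCACNCCAC in Hmgcs1, the ER stress response element, CCAAT followed after 9 bases by CCACG, in Creld2 (on the reverse strand), Hspa5 and Pdia6, and the metal response element core TGCACNC or TGCGCNC in Mt2, where the third marked stretch is on the reverse strand.
Hmgcs1: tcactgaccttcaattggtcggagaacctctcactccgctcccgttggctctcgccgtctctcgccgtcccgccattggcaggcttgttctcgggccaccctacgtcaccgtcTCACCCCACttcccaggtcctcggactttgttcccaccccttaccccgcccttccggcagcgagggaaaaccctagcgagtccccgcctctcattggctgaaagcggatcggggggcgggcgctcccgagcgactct
Creld2: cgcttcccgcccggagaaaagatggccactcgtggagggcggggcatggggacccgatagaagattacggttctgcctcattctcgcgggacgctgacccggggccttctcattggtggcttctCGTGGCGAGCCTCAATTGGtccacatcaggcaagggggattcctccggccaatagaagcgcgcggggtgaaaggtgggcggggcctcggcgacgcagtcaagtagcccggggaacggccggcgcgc
Hspa5: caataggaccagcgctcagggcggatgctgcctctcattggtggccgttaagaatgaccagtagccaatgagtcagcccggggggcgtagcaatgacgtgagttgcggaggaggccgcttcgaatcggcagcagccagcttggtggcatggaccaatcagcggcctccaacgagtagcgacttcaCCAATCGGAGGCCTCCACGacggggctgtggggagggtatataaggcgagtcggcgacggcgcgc
Pdia6: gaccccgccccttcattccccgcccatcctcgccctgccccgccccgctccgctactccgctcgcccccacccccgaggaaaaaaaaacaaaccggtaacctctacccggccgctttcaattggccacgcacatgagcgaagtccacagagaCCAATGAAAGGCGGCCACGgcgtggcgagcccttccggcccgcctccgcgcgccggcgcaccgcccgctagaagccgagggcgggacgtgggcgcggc
Mt2: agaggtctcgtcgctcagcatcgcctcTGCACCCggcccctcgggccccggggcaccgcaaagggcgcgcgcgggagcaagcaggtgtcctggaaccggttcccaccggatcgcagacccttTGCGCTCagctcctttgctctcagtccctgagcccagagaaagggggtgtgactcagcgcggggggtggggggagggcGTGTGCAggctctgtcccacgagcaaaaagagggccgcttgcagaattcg
Motifs were searched on both strands of the 250 bases before each start. The ER stress response element was present in 9 of 19 ER chaperone genes with a promoter in the table (47.4%), against 0.130% of 27025 genes. The sterol element was present in 1 of 14 cholesterol synthesis genes (7.14%), against 1.22% of genes. The metal response core was present in 4 of 5 metallothionein and zinc genes (80.0%), against 23.8% of genes. A forkhead motif, TTGTTTAC or GTAAACA, was found in 1 of 17 FoxO1 target genes (5.88%), against 3.54% of genes. A match is a run of letters and not evidence of binding.

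Genes of cholesterol synthesis were higher in refed than in fasted LIRFKO liver, from Hmgcs1 at the start of the pathway to Dhcr7 at its end. Of 17 measured genes of the pathway, 9 were called higher and none lower, against 0.987% of all genes called higher. Of the 17, 11 had refed libraries all above the fasted ones (5.77% of all genes did). A positive change was seen for 16, and the median change was 1.70 log2, against -0.002 over all genes. Hmgcs1, which makes HMG-CoA, was at 11.11, 11.55 and 12.01 log2 in Fast_518, Fast_519 and Fast_525 and at 14.28, 14.01, 13.10 and 14.91 in Refed_468, Refed_469, Refed_478 and Refed_524. The groups did not overlap, Refed_478 was the lowest refed mouse, and the change was 2.43 ± 0.53 or 5.38-fold (adjusted p = 0.0179, lost without Fast_518, Fast_519, Refed_468 or Refed_524, up to 0.11). Lss, the lanosterol synthase that closes the sterol rings, was at 7.24, 8.06 and 8.48 fasted and 10.23, 10.40, 8.94 and 10.81 refed. It rose by 2.16 ± 0.38 or 4.47-fold (adjusted p = 0.00412), again with Fast_518 lowest among the fasted and Refed_478 lowest among the refed.

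The enzymes of the mevalonate arm came next. Idi1, which isomerises the isoprene unit, rose from 10.08, 10.86 and 11.98 to 13.73, 13.95, 12.31 and 14.21, by 2.42 ± 0.60 (adjusted p = 0.0318, lost without Fast_518, Fast_519, Refed_468 or Refed_524, up to 0.164). Mvd, the mevalonate diphosphate decarboxylase, rose from 6.52, 7.58 and 8.07 to 9.42, 10.04, 8.71 and 9.96, by 2.08 ± 0.45 (adjusted p = 0.0173, lost without Fast_518, Fast_519 or Refed_524, up to 0.118). In both genes the refed values lay above all fasted ones, and Refed_478 was nearest to them. The kinases Mvk and Pmvk passed with overlap, since Refed_478 (11.24 and 11.34) lay below Fast_525 (11.40 and 11.44). Their changes were 1.70 ± 0.43 (adjusted p = 0.0346, lost without any library but Refed_478, up to 0.167) and 1.34 ± 0.30 (adjusted p = 0.0199, lost without Fast_518, Fast_519, Refed_468 or Refed_524, up to 0.124). Of the enzymes of the sterol steps, Cyp51, which demethylates lanosterol, rose from 6.02, 7.16 and 7.74 to 9.88, 9.25, 8.37 and 9.50, by 2.17 ± 0.48 (adjusted p = 0.0179, lost without Fast_518, Fast_519, Refed_468 or Refed_524, up to 0.124). Dhcr7, which makes cholesterol from its last precursor, rose from 8.22, 8.27 and 8.90 to 10.36, 10.01, 9.07 and 9.94, by 1.40 ± 0.28 (adjusted p = 0.00886, lost without Fast_518 or Fast_519, up to 0.0566). Sc5d, a sterol desaturase, was the most even: 11.08, 10.67 and 10.88 fasted against 11.91 to 12.16 refed, a change of 1.13 ± 0.26 (adjusted p = 0.0204, lost without Fast_519, Fast_525, Refed_468 or Refed_524, up to 0.116).

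Sqle, the squalene epoxidase, had the largest change in the pathway without passing. It was at 8.25, 9.75 and 10.93 fasted and 12.90, 12.76, 11.42 and 12.73 refed, a difference of 2.50 ± 0.73 (adjusted p = 0.0756), and its fasted values were more scattered than those of the called genes above. Fdps, Fdft1, Msmo1 and Nsdhl also missed, at 2.23 (adjusted p = 0.0615), 1.48 (0.0654), 2.16 (0.134) and 1.65 (0.0915). Averaged over the 17 genes, fasted libraries Fast_518, Fast_519 and Fast_525 were at 9.39, 10.17 and 10.69, and Refed_468, Refed_469, Refed_478 and Refed_524 at 12.02, 11.96, 10.95 and 12.25. Fast_518 was the lowest fasted library for 15 genes and Refed_478 the lowest refed one for 15, so the fasted and the refed groups each had 1 mouse low over nearly the whole pathway. Leaving out 1 library left 1 (without Fast_519) to 9 (without Refed_478) genes called, 2 without Fast_518, 2 without Refed_524 and 3 without Refed_468, with medians of 1.48 to 2.16. With slide as a fixed block Idi1 (adjusted p = 0.0777), Cyp51 (0.0516) and Mvk (0.0534) were lost, and with no array block Idi1 (0.073), Mvk (0.0951) and Pmvk (0.0536).

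**Figure D2:**
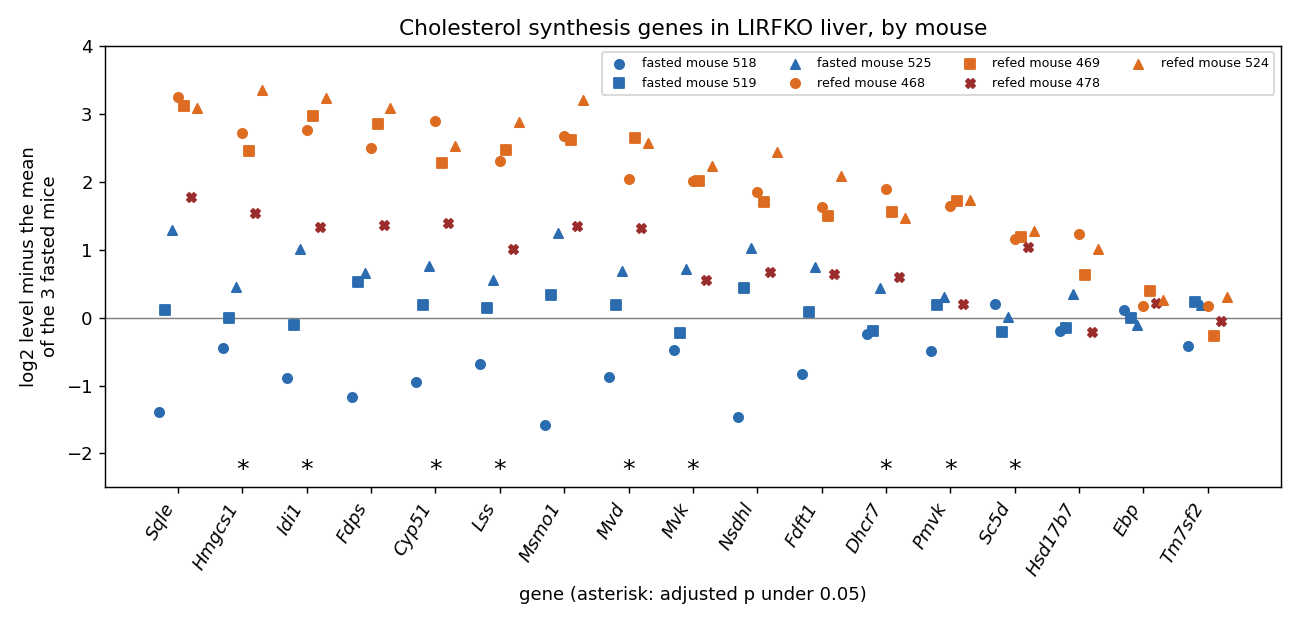
Cholesterol synthesis genes in the 3 fasted and 4 refed LIRFKO mice, each point 1 library, as log2 level minus the mean of the 3 fasted mice. The log2 level of Hmgcs1 was 11.11 to 12.01 fasted and 13.10 to 14.91 refed, and Refed_478 is the lowest refed point for most of these genes.

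Aacs, a cytosolic enzyme that activates acetoacetate for lipid synthesis, had the largest rise among genes with separate groups. It was at 7.29, 9.35 and 8.93 log2 fasted and 11.91, 12.22, 10.04 and 12.28 refed, a change of 2.88 ± 0.55 or 7.34-fold (adjusted p = 0.00796, lost without Fast_518, at 0.0602). It was the one gene called among 10 measured genes of sterol regulation and uptake (0.987% of all genes were called higher), a list whose median change was 0.07. Insig1, which retains SREBP in the ER and is itself an SREBP target, changed by 1.09 without passing (adjusted p = 0.312). Srebf2, which encodes the SREBP of the cholesterol pathway, was at 6.64 to 7.40 fasted and 6.76 to 7.49 refed, with full overlap.

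Genes of fatty acid synthesis were higher in part. Of 18 genes 4 were called higher (Acly, Fasn, Mid1ip1 and Elovl6) and none lower, with a median change of 0.25, against 0.987% of all genes called higher. Acly, which supplies cytosolic acetyl-CoA from citrate, was at 11.05, 11.48 and 11.52 fasted and 12.53, 12.44, 12.18 and 12.54 refed, a rise of 1.13 ± 0.17 (adjusted p = 0.000612). Fasn, the fatty acid synthase, rose from 6.55, 7.0 and 7.49 to 8.65, 8.63, 7.59 and 9.04, by 1.5 ± 0.29 or 2.82-fold (adjusted p = 0.00803, lost without Fast_518, Fast_519 or Refed_524, up to 0.0666). Refed_478 was only just above Fast_525 for Fasn, while Acly kept a clear gap in all mice. Mid1ip1, an activator of acetyl-CoA carboxylase, rose from 9.46, 9.21 and 10.61 to 11.26, 11.54, 11.10 and 12.14, by 1.73 ± 0.41 (adjusted p = 0.0277, lost without Fast_518, Fast_519, Refed_468 or Refed_524, up to 0.196). Elovl6, an elongase, passed narrowly with overlap, at 1.35 ± 0.36 (adjusted p = 0.0493), and lost its call without any 1 library, with slide or no array block, with no dye term and with another variance prior (up to 0.209, without Fast_518).

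The other SREBP-1c genes were less regular. Srebf1 was at 6.41 to 6.48 fasted and 6.63 to 7.11 refed without passing (adjusted p = 0.418), although all refed values were higher. Thrsp, a lipogenic nuclear protein, was at 8.56, 10.11 and 10.57 fasted and 11.39, 11.85, 9.08 and 13.45 refed (adjusted p = 0.401). Scd1, the main hepatic desaturase, was at 9.37 to 10.71 fasted and 9.34 to 10.67 refed, with no separation. Its paralog Scd2, chosen after its values were seen, rose from 6.62 to 7.01 in fasted mice to 7.37 to 7.79 in refed ones, by 0.83 ± 0.13 (adjusted p = 0.000727). Elovl1, a very long chain elongase also chosen so, rose by 0.61 ± 0.11 (adjusted p = 0.00476). Without Refed_478, 3 of the 18 were called and the median was 0.35, and 1 was called without Fast_518, Fast_519 or Refed_524.

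ER chaperones and unfolded protein response genes were higher in the refed mice. Of 21 genes 6 were called higher (Creld2, Manf, Hspa5, Xbp1, Dnajb11 and Pdia6) and none lower, against 0.987% of all genes called higher. Of the 21, 16 had refed libraries all above the fasted ones (5.77% of all genes did), 20 changes were positive, and the median was 0.83. Creld2, a secreted ER stress protein, was at 10.97, 11.82 and 10.66 log2 fasted and 13.57, 14.05, 13.55 and 13.12 refed. The change was 2.15 ± 0.50 or 4.44-fold (adjusted p = 0.0253, lost without Fast_518, Fast_525, Refed_468 or Refed_469, up to 0.15). Manf, another secreted ER stress factor, rose from 9.45, 10.42 and 9.40 to 11.85, 12.03, 12.11 and 11.67, by 1.87 ± 0.43 (adjusted p = 0.0216, lost without Fast_518, Fast_525, Refed_468 or Refed_478, up to 0.134). In both genes Fast_519 was above the other fasted mice, and every refed mouse was above it.

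Hspa5, the ER chaperone BiP, was at 13.06, 13.91 and 12.66 fasted and 14.76, 15.13, 14.83 and 14.86 refed, a rise of 1.52 ± 0.37 (adjusted p = 0.0297, lost without any library but Fast_519, up to 0.174). Xbp1, the transcription factor of the response, was at 12.36 to 12.51 fasted and 13.27 to 13.88 refed, a rise of 1.03 ± 0.21 (adjusted p = 0.0117, lost without Fast_525, at 0.0658). Pdia6, a disulfide isomerase, rose from 12.35 to 12.81 fasted to 13.29 to 13.74 refed, by 0.86 ± 0.20 (adjusted p = 0.0256, lost without Fast_519, Fast_525, Refed_468, Refed_469 or Refed_524, up to 0.166). The refed values of these 3 genes were close together and none overlapped the fasted ones. Dnajb11, a cochaperone of BiP, changed by 0.99 ± 0.25 (adjusted p = 0.0345), a call lost without any 1 library (up to 0.161) and not held by the mean of its 2 probes, which disagree (0.888). Sdf2l1, at 7.66 to 8.27 fasted and 9.33 to 10.38 refed, missed with a difference of 1.77 (adjusted p = 0.0663), as did Hsp90b1 at 0.90 (0.155). Herpud1, of ER degradation, was the exception in sign, at -0.27.

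Of the printed promoters, those of Creld2, Hspa5 and Pdia6 hold the ER stress response element, as did Calr, Canx, Derl3, Dnajc3, Hsp90b1 and Syvn1 among the genes that missed. Those of Xbp1 and Dnajb11 had none in this window. Averaged over the 21 genes the fasted libraries were at 10.34, 10.67 and 10.34 and the refed ones at 11.37, 11.66, 11.43 and 11.32, so that, unlike in cholesterol synthesis, Refed_478 was not low. Refed_469 was the highest refed library for 12 genes. Leaving out 1 library left 0 (without Fast_525) to 4 (without Fast_519) genes called, 3 without Refed_478, 1 without Refed_468 and 2 without Fast_518 or Refed_469, with medians of 0.67 to 0.96, and with slide as a fixed block Creld2 (adjusted p = 0.0532), Manf (0.0596), Hspa5 (0.0645) and Dnajb11 (0.0678) were lost.

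**Figure D3:**
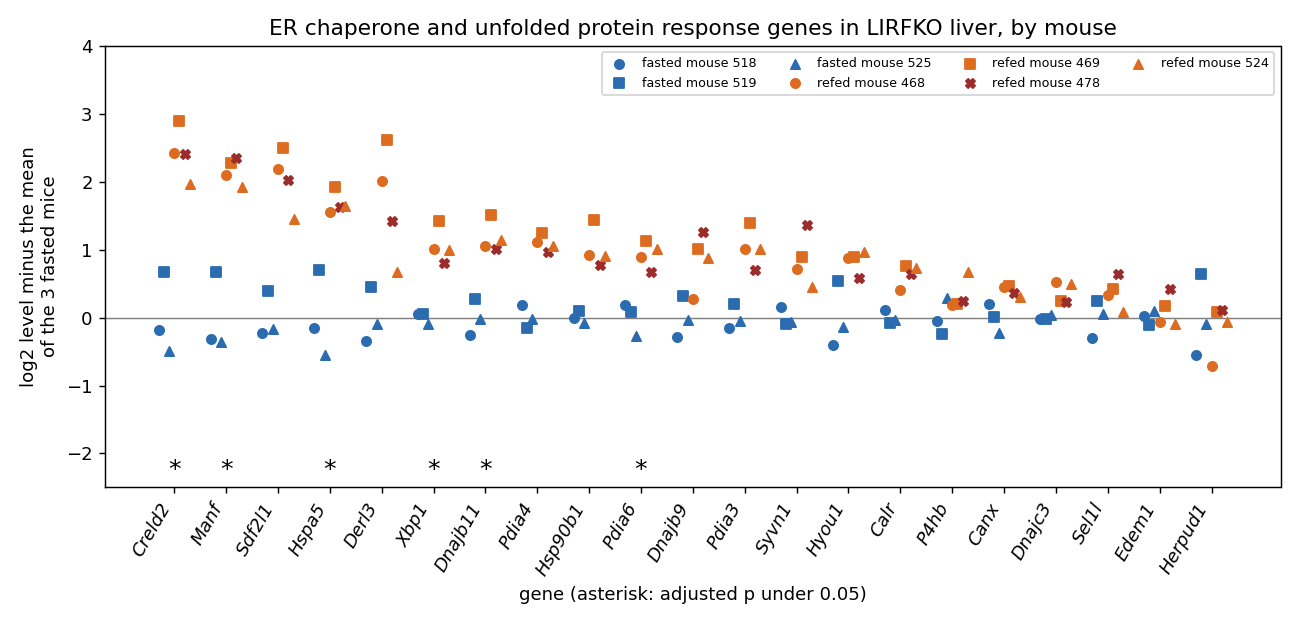
ER chaperone and unfolded protein response genes in the 3 fasted and 4 refed LIRFKO mice, each point 1 library, as log2 level minus the mean of the 3 fasted mice. The log2 level of Creld2 was 10.66 to 11.82 fasted and 13.12 to 14.05 refed, and that of Hspa5 12.66 to 13.91 and 14.76 to 15.13.

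Cytosolic chaperones and ribosome assembly moved less. The heat shock list had a median of 0.53 with all 9 changes positive, and 1 gene was called higher (0.987% of all genes were). This was Hsp90aa1, the inducible cytosolic Hsp90. It was at 11.11, 11.87 and 11.14 fasted and 12.69, 13.25, 12.41 and 12.35 refed, a change of 1.26 ± 0.31 (adjusted p = 0.0324, lost without Fast_518, Fast_525, Refed_468 or Refed_469, up to 0.153). Fkbp4, an Hsp90 cochaperone chosen after its values were seen, rose from 8.33 to 8.80 in fasted mice to 9.35 to 9.68 in refed ones, by 1.0 ± 0.18 (adjusted p = 0.00484). Of 21 ribosome biogenesis genes 1 was called higher, Nolc1, a nucleolar chaperone, at 0.74 ± 0.17 (adjusted p = 0.0263, lost without Fast_518, Fast_525, Refed_469 or Refed_524, up to 0.161, and with slide as a block, 0.0765). That list's median was 0.37, and 8 of its genes had refed libraries all above the fasted ones (5.77% of all genes did).

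Genes of glucose production had mostly negative changes and few calls. Of 13 gluconeogenesis genes 1 was called lower (0.809% of all genes were), 8 had refed libraries all below the fasted ones (5.81% of all genes), 12 changes were negative, and the median was -0.80. Crtc2, the cAMP-regulated coactivator of gluconeogenic genes, was at 9.70, 8.94 and 9.32 fasted and 8.21, 8.73, 8.51 and 8.49 refed. It fell by 0.81 ± 0.16 on the log2 scale (adjusted p = 0.00805, lost without Fast_518, at 0.0693). Pck1, the cytosolic PEP carboxykinase, was at 15.06, 15.34 and 15.77 fasted and 14.87, 14.74, 14.33 and 13.89 refed, and its difference of -0.96 ± 0.44 did not pass (adjusted p = 0.329). G6pc, which releases glucose, was at 12.54 to 13.04 fasted and 12.67, 11.36, 10.63 and 12.07 refed (-1.04 ± 0.45, adjusted p = 0.282). For G6pc Refed_468 lay within the fasted range, while for Pck1 all refed mice were below the fasted ones. Ppargc1a, the coactivator PGC-1alpha, changed by -1.01 without passing (adjusted p = 0.237). Leaving out 1 library left 0 (without Fast_518) to 2 (without Refed_469) genes of the list called.

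Genes that FoxO1 is known to induce, absent FoxO1 in hepatocytes here, showed 2 calls of 20, both lower, with a median of -0.35 and 9 genes without overlap on the lower side, against 0.809% and 5.81% of all genes. With 1 library left out, 0 (without Fast_518, Fast_519, Refed_468 or Refed_478) or 1 were called lower, and 1 higher without Refed_469. Igfbp1, the classic insulin-suppressed binding protein, was at 12.69, 14.71 and 13.01 fasted and 12.82, 10.03, 12.45 and 11.61 refed, a difference of -1.5 ± 0.73 (adjusted p = 0.367). Fast_519 was high and Refed_469 low, and the other libraries of both groups overlapped. Irs2, the insulin receptor substrate, was at 10.15 to 10.42 fasted and 9.97, 8.91, 9.02 and 9.96 refed (adjusted p = 0.252). Pdk4, which blocks pyruvate dehydrogenase in the fasted state, fell from 8.40, 8.51 and 7.89 to 6.81, 6.45, 6.43 and 7.32, by 1.36 ± 0.32 on the log2 scale (adjusted p = 0.0277, lost without any library but Refed_524, up to 0.113, and with slide as a block, 0.0645). Fbxo32, a ubiquitin ligase, fell by 0.43 ± 0.11 on the log2 scale (adjusted p = 0.0324, lost without Fast_518, Fast_519, Refed_468, Refed_478 or Refed_524, up to 0.233, with no array block, 0.0566, and over the mean of its probes, 0.147), at levels near the array median. Pdpr, a subunit of pyruvate dehydrogenase phosphatase, joined Pdk4 among 8 genes of pyruvate dehydrogenase control, 2 of which fell. It fell by 0.57 ± 0.12 on the log2 scale (adjusted p = 0.0135, lost without Fast_519, Fast_525 or Refed_468, up to 0.0981). Txnip, a glucose-induced inhibitor of glucose uptake, fell from 9.33, 9.86 and 10.26 to 8.77, 8.43, 8.37 and 9.23, by 1.07 ± 0.22 on the log2 scale (adjusted p = 0.0117, lost without Fast_525, at 0.102). It was the one gene called of 11 in glucose use and sensing.

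The largest fall was in metallothionein. Mt2, a small zinc-binding protein that glucocorticoids and zinc induce, was at 15.06, 15.03 and 13.74 log2 fasted and 11.12, 10.09, 12.12 and 10.36 refed. It fell by 3.78 ± 0.39 on the log2 scale, or 13.7-fold (adjusted p = 5.86e-06), with no overlap and with Refed_478 highest among the refed. Mt1, its neighbour and near copy, whose probes may share signal, was at 15.88, 15.85 and 14.09 fasted and 13.80, 11.86, 14.95 and 12.92 refed, and fell by 2.04 ± 0.51 on the log2 scale (adjusted p = 0.0359, lost without Fast_518, Fast_519, Refed_468, Refed_469 or Refed_524, up to 0.167, with no array block, 0.106, and with slide as a block, 0.0645). Mt1 overlapped through Refed_478, and its values in Fast_518 and Fast_519 were at the top of the array's range. The other 5 measured genes of the list, zinc transporters and the zinc sensor Mtf1, did not pass, and the list's median was 0.09.

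Of 13 glucocorticoid-induced genes 13 had negative changes, with a median of -0.86, 2 called lower (0.809% of all genes were) and 6 with refed libraries all below the fasted ones (5.81% of all genes). Leaving out 1 library left 1 (without Fast_519, Fast_525, Refed_478 or Refed_524) to 5 (without Refed_469) called. Fkbp5, the Hsp90 cochaperone of the glucocorticoid receptor, was at 11.80, 11.87 and 11.39 fasted and 10.21, 9.78, 10.63 and 10.04 refed. It fell by 1.5 ± 0.25 on the log2 scale, or 2.83-fold (adjusted p = 0.00218). Cebpd, a transcription factor, was at 10.84, 11.92 and 10.97 fasted and 10.83, 10.28, 9.92 and 9.32 refed, and fell by 1.30 ± 0.33 on the log2 scale (adjusted p = 0.0372, lost without Fast_519, Fast_525, Refed_478 or Refed_524, up to 0.304, with slide as a block, 0.0632, and with no array block, 0.108). Refed_468 lay just below the fasted mice for Cebpd, whereas Fkbp5 was well apart in every mouse. Tsc22d3 (GILZ), at 10.90 to 12.21 fasted and 9.73 to 11.00 refed, did not pass (adjusted p = 0.109).

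**Figure D4:**
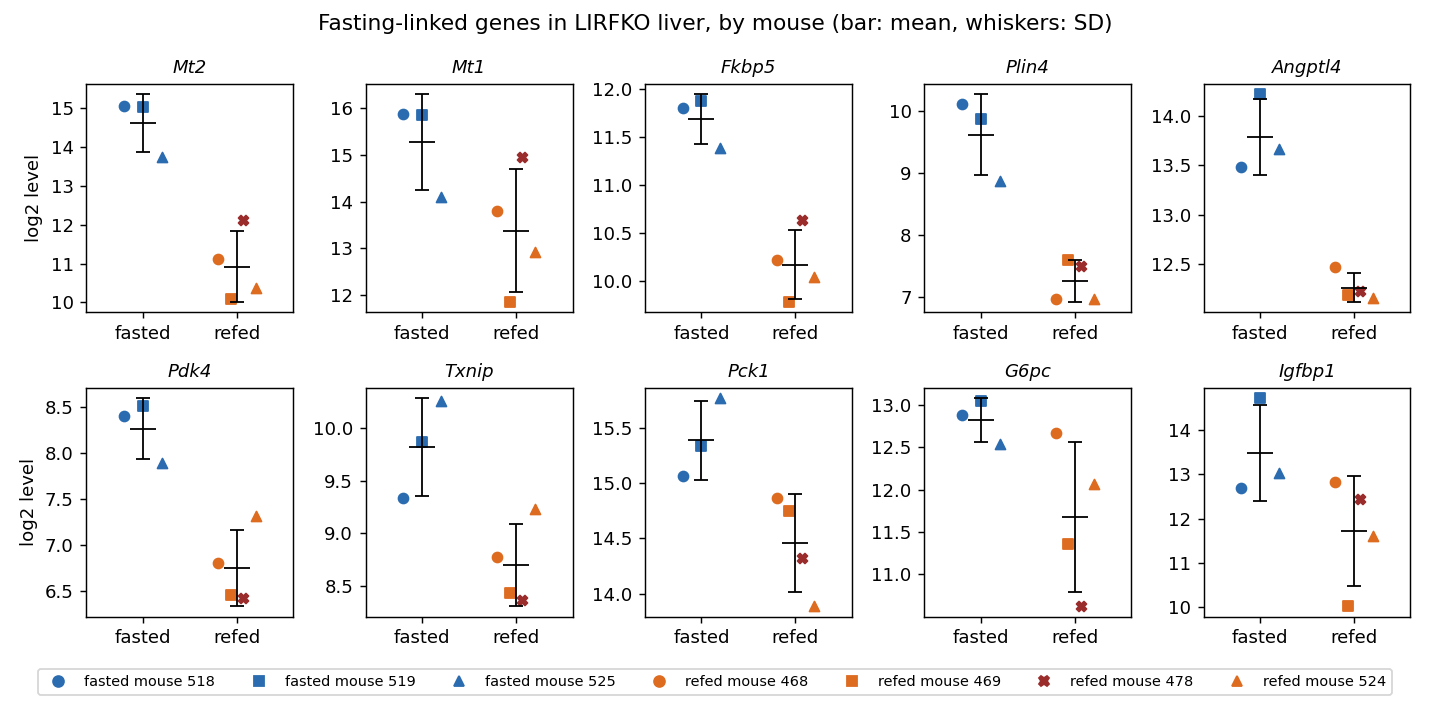
Log2 levels of genes called lower on refeeding and of Pck1, G6pc and Igfbp1, whose changes did not pass. Each point is the library of 1 of the 3 fasted or 4 refed LIRFKO mice. Mt2 lies at 13.74 to 15.06 fasted and 10.09 to 12.12 refed, and Plin4 at 8.88 to 10.12 and 6.97 to 7.60.

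Genes of fat and amino acid breakdown had negative changes and few calls. All 23 measured genes of fatty acid oxidation and PPARalpha had negative changes, with a median of -0.40. Among them 7 had no overlap (5.81% of all genes on the lower side) and 1 was called (0.809% of all genes were called lower). That gene, Angptl4, a secreted lipoprotein lipase inhibitor induced by fasting, was at 13.48, 14.22 and 13.66 fasted and 12.16 to 12.48 refed. It fell by 1.49 ± 0.37 on the log2 scale (adjusted p = 0.0341), a call lost without any 1 library (up to 0.163) and with no array block (0.0892). Plin4, a lipid droplet coat protein outside that list, fell from 10.12, 9.88 and 8.88 to 6.97, 7.60, 7.51 and 6.98, by 2.18 ± 0.35 on the log2 scale or 4.53-fold (adjusted p = 0.00111). Acot12, an acetyl-CoA thioesterase chosen after its values were seen, fell by 0.59 ± 0.11 on the log2 scale (adjusted p = 0.00535). Its relative Acot5, a peroxisomal thioesterase, fell by 1.43 ± 0.37 on the log2 scale (adjusted p = 0.0441, lost without any library but Refed_524, up to 0.256, with no array block, 0.0605, with slide as a block, 0.0949, and over the mean of its 2 probes, 0.0612). Of 17 genes of amino acid breakdown and the urea cycle 16 had negative changes, with a median of -0.38 and 9 without overlap (5.81% of all genes on the lower side). The 1 called, Prodh, which oxidises proline, was at 13.22 to 13.96 fasted and 12.52 to 12.90 refed and fell by 0.82 ± 0.21 on the log2 scale (adjusted p = 0.0433, lost without any library but Refed_469, up to 0.169, with no array block, 0.0683, and with slide as a block, 0.0678).

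The other large changes fell outside these pathways. Nudt7, a peroxisomal CoA hydrolase with male-biased expression, rose from 11.29, 11.18 and 11.87 to 13.13, 14.40, 12.90 and 13.69, by 1.99 ± 0.29 (adjusted p = 0.000535). Cyp26a1, which degrades retinoic acid, rose from 7.04 to 7.15 fasted to 9.48, 9.50, 8.25 and 9.30 refed, by 1.98 ± 0.39 (adjusted p = 0.00971, lost without Fast_519 or Refed_524, up to 0.0581). Lrat, which stores retinol as ester and was chosen after its values were seen, rose by 0.71 ± 0.15 (adjusted p = 0.0126, lost without Fast_518 or Fast_519, up to 0.0693). Fabp5, a fatty acid binding protein, and its near copy Fabp5l2, which cannot be told apart with certainty here, rose by 1.92 ± 0.49 (adjusted p = 0.0376, lost without any 1 library, up to 0.142) and 2.04 ± 0.50 (adjusted p = 0.0324, lost without any library but Refed_478, up to 0.122). Osgin1, an NRF2 target, rose from 10.16 to 10.84 fasted to 11.33, 12.66, 12.85 and 12.57 refed, by 1.76 ± 0.43 (adjusted p = 0.0324, lost without any library but Refed_468, up to 0.144). It was the 1 gene of 12 in its list to pass (0.987% of all genes were called higher). Inhba, the activin A subunit, rose by 0.92 ± 0.22 (adjusted p = 0.0256, lost without any library but Refed_469, up to 0.134).

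Several falls were tight among the mice. Dhtkd1, a mitochondrial dehydrogenase of lysine breakdown, was at 9.68 to 9.90 fasted and 8.35 to 8.50 refed, a fall of 1.37 ± 0.26 on the log2 scale (adjusted p = 0.00803). Slc25a34, a mitochondrial carrier, fell from 8.69 to 9.20 to 7.28 to 7.83, by 1.34 ± 0.19 on the log2 scale (adjusted p = 0.000375). St3gal5, which makes the ganglioside GM3, fell from 13.34 to 13.95 to 11.39 to 12.38, by 1.69 ± 0.25 on the log2 scale (adjusted p = 0.000612). For these 3 genes every fasted mouse was above every refed mouse. Pde5a, the cGMP phosphodiesterase, was at 8.41 to 8.52 fasted and 6.23, 6.16, 6.92 and 5.98 refed and fell by 2.09 ± 0.53 on the log2 scale (adjusted p = 0.037, lost without any library but Refed_478, up to 0.153). Slc49a4 fell by 1.70 ± 0.39 on the log2 scale (adjusted p = 0.0209, lost without Fast_518, Fast_519, Fast_525, Refed_468 or Refed_524, up to 0.102), and Rasgef1b by 1.45 ± 0.32 (adjusted p = 0.0173, lost without Fast_519 or Refed_524, up to 0.166). With no array block Fabp5 (adjusted p = 0.0663), Fabp5l2 (0.054), Inhba (0.0783), Pde5a (0.0896) and Slc49a4 (0.051) were also lost, and with slide as a block Fabp5 (0.0927) and Fabp5l2 (0.0846).

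Among genes with the smallest p, chosen after their values were seen, Nfe2, a transcription factor known from blood cells, rose from 5.59, 5.92 and 6.21 to 7.73, 7.68, 7.19 and 7.69, by 1.68 ± 0.23 (adjusted p = 0.000333). Mean levels of erythroid markers overlapped between the groups, at 11.4 to 12.7 fasted and 11.6 to 12.6 refed. Baiap2l1, an actin adaptor, fell from 9.11 to 9.35 to 7.91 to 8.35, by 1.16 ± 0.16 on the log2 scale (adjusted p = 0.000333). Umps, the last enzyme of pyrimidine synthesis, rose by 0.71 ± 0.11 (adjusted p = 0.000744).

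Some feeding genes split the refed mice. Angptl8, a feeding-induced hepatokine, was at 10.56 to 10.97 fasted and 10.92, 13.13, 13.16 and 12.88 refed (adjusted p = 0.102), so Refed_468 stayed in the fasted range while the other 3 were well above it. Fgf21, the fasting hepatokine, was at 9.26 to 9.55 fasted and 7.45, 6.54, 9.05 and 9.72 refed (adjusted p = 0.408), low in Refed_468 and Refed_469 and at fasted levels in Refed_478 and Refed_524. Hsd3b5, a male-biased steroid dehydrogenase, was at 7.40 to 8.0 fasted and 9.25, 11.51, 10.87 and 8.22 refed (adjusted p = 0.304). These 3 genes ordered the refed mice differently. No gene was called in the lists of immediate early genes, clock genes, ATF4 targets, bile acid synthesis, sterol efflux, glycogen, the growth hormone axis, acute phase, insulin signalling, proliferation and female-biased genes, and their medians lay between -0.21 and 0.20.

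The response was set beside those of the other genotypes, none of which share libraries with it. Refeeding called 416 genes in LIRKO (1.85%, with 0.983% higher and 0.867% lower), 794 in IR/FoxO1 floxed (3.53%, with 2.01% and 1.52%) and 811 in IR floxed mice (3.61%, with 2.12% and 1.49%). Of the 404 LIRFKO genes, 200 were also called in the same direction in IR/FoxO1 floxed mice, which is 200 of 404 and of 794. Without the library labelled IRF.fl_Fast_523, IR/FoxO1 floxed mice had 460 called genes (2.05%), of which 158 were among the 404 in the same direction. With IR floxed mice 189 were shared, of 404 and of 811, and with LIRKO 88, of 404 and of 416. No gene was called in opposite directions in LIRFKO and another genotype, and 140 of the 404 were called in none of the others. The sign alone was the same for 375 of the 404 in IR/FoxO1 floxed, 391 in IR floxed and 372 in LIRKO mice, and for 379 in IR/FoxO1 floxed mice without the library labelled IRF.fl_Fast_523.

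For cholesterol synthesis the LIRFKO and LIRKO values lay apart, although no gene passed the test of the difference in the fit of all libraries. The 17 genes had a median change of 1.70 in LIRFKO (9 called), -0.16 in LIRKO (0 called), 0.74 in IR floxed (1 called) and 1.81 in IR/FoxO1 floxed mice (13 called), the last being 2.76 without the library labelled IRF.fl_Fast_523 (14 called). The LIRFKO change exceeded the LIRKO change for 17 of 17 genes, by a median of 1.83 and between 0.26 and 3.29, and 15 had an unadjusted p under 0.05 for that difference (5.87% of all genes did). None passed adjustment: Hmgcs1 differed by 3.29 ± 0.74 (adjusted p = 0.188) and Lss by 2.30 ± 0.53 (adjusted p = 0.204, and 0.0337 without Refed_478 and IRF.fl_Fast_523 together). Against IR/FoxO1 floxed mice the differences had a median of -0.11 with 2 of 17 positive and 0 at an unadjusted p under 0.05 (4.06% of all genes). Without the library labelled IRF.fl_Fast_523 that median was -0.73, with 1 of 17 positive and 1 at an unadjusted p under 0.05 (3.9% of all genes). Against IR floxed mice the differences had a median of 0.91 with 17 of 17 positive and 4 at an unadjusted p under 0.05 (3.65% of all genes). None of these differences was called.

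ER chaperone genes had medians of 0.83 in LIRFKO (6 called of 21), 0.48 in LIRKO (none higher, 1 lower), 1.13 in IR floxed (17 called) and 1.09 in IR/FoxO1 floxed mice (14 called, 6 without the library labelled IRF.fl_Fast_523). The LIRFKO change was below the IR floxed one for 21 of 21 genes, with a median difference of -0.35 and 0 differences called. At an unadjusted p under 0.05 were 2 of the 21 (3.65% of all genes). Gluconeogenesis had medians of -0.80 in LIRFKO, -0.03 in LIRKO, -0.98 in IR floxed and -0.53 in IR/FoxO1 floxed mice (-0.61 without IRF.fl_Fast_523). Pck1 changed by -0.01 in LIRKO, -1.46 in IR floxed (adjusted p = 0.0483) and -2.44 in IR/FoxO1 floxed mice (adjusted p = 0.00321, and -2.53 with 0.0174 without IRF.fl_Fast_523). Igfbp1 changed by -3.60 in IR floxed and -3.61 in IR/FoxO1 floxed mice (-3.62 without IRF.fl_Fast_523), beside -1.5 in LIRFKO. For no gene of the gluconeogenesis and FoxO1 target lists, Pck1 and Igfbp1 included, did the LIRFKO response pass the test of the difference from another genotype. Mt2 fell in every genotype, with changes of -4.18 in LIRKO, -2.67 in IR floxed and -4.54 in IR/FoxO1 floxed mice (-4.19 without IRF.fl_Fast_523), and glucocorticoid-induced genes had medians of -0.86, -0.93, -1.0 and -1.20 in LIRFKO, LIRKO, IR floxed and IR/FoxO1 floxed mice, the last being -1.54 without IRF.fl_Fast_523. Pdk4 changed by -1.36 in LIRFKO and by -3.31 in LIRKO (adjusted p = 2.07e-06), and the difference of 1.95 ± 0.45 did not pass (adjusted p = 0.204). In IR/FoxO1 floxed mice without IRF.fl_Fast_523, Pdk4 changed by -0.43 (adjusted p = 0.793). In IR floxed mice no gene of pyruvate dehydrogenase control was called. Immediate early genes had a median of -0.05 in LIRFKO and -0.49 in LIRKO, where 4 were called lower. Nfe2 rose in IR/FoxO1 floxed mice by 2.01 (adjusted p = 2.9e-05, and 2.41 with 1.99e-05 without IRF.fl_Fast_523), and its changes of 0.39 in LIRKO and 0.13 in IR floxed mice did not pass.

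**Figure D5:**
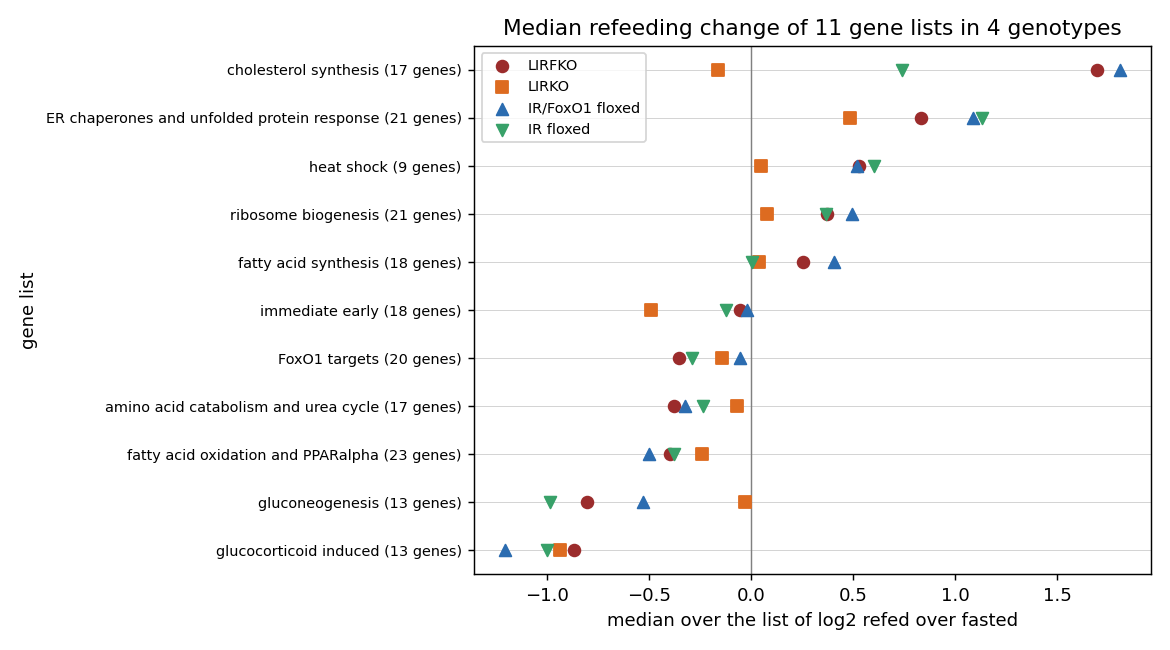
Median log2 refeeding change of selected gene lists in LIRFKO and the other 3 genotypes. Cholesterol synthesis is at 1.70 in LIRFKO, -0.16 in LIRKO, 0.74 in IR floxed and 1.81 in IR/FoxO1 floxed mice.

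The difference between responses was tested gene by gene. Between LIRFKO and LIRKO 5 genes differed (0.0222%), 2 with a higher (0.00889%) and 3 with a lower response in LIRFKO (0.0133%), with 1319 at an unadjusted p under 0.05. Ccr3, a chemokine receptor, was at 5.76 to 6.28 fasted and 5.77 to 6.18 refed in LIRFKO and went from 5.90 ± 0.11 (SD, n = 3) to 7.09 ± 0.16 (SD, n = 4) in LIRKO, a difference of -1.33 ± 0.18 (adjusted p = 0.000744). Dusp14, a phosphatase, was at 5.30 to 5.49 in all LIRFKO libraries and went from 5.52 ± 0.08 (SD, n = 3) to 6.35 ± 0.10 (SD, n = 4) in LIRKO, a difference of -0.75 ± 0.10 (adjusted p = 0.000744). Both passed without each of the 14 libraries in turn, and Ccr3 was at 0.0632 in a fit of the compared groups alone. Sorbs3, an adhesion adaptor, was at 6.39 to 6.71 fasted and 6.05 to 6.41 refed in LIRFKO and fell in LIRKO from 7.67 ± 0.13 (SD, n = 3) to 6.40 ± 0.09 (SD, n = 4), a difference of 1.0 ± 0.16 (adjusted p = 0.00656, lost without LIRFKO Fast_518 at 0.102, without IR.KO_Fast_505 at 0.0719 and with no array block at 0.114). In all 3 genes the fasted and refed LIRFKO libraries overlapped. The LIRFKO levels of Dusp14 lay below the library medians (5.72 to 5.78) and near the lowest value of the series (5.07), where a fall could hardly be seen. The filter on low genes removed Dusp14.

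Tnfrsf12a, the TWEAK receptor, and Epdr1 passed narrowly (adjusted p = 0.049 for both). Tnfrsf12a was at 8.12 to 8.71 fasted and 8.49 to 9.01 refed in LIRFKO and fell in LIRKO from 10.59 ± 0.49 (SD, n = 3) to 9.25 ± 0.41 (SD, n = 4), a difference of 1.68 ± 0.31. Epdr1, which the filter on low genes removed, was at 5.36 to 5.59 in LIRFKO, below the library medians. It rose in LIRKO from 6.06 ± 0.10 (SD, n = 3) to 6.75 ± 0.35 (SD, n = 4), a difference of -0.75 ± 0.14. Each kept its call without 3 of the 14 libraries in turn, with highest adjusted p of 0.306 without LIRFKO Fast_518 for Tnfrsf12a and 0.256 without IR.KO_Fast_505 for Epdr1, and both were lost without the library labelled IRF.fl_Fast_523, at 0.0635 and 0.0647.

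Between LIRFKO and IR/FoxO1 floxed mice 1 gene differed (0.00445%), with 912 at an unadjusted p under 0.05. Clic5, a chloride channel protein that the filter on low genes removed, was at 5.44 to 5.72 in LIRFKO, no higher than the library medians. It rose in IR/FoxO1 floxed mice from 5.64 ± 0.03 (SD, n = 3) to 6.89 ± 0.21 (SD, n = 3), a difference of -1.30 ± 0.19 (adjusted p = 0.00522). It passed without each of the 13 libraries in turn, IRF.fl_Fast_523 included, and was lost with slide as a block (0.0587), in a fit of the compared groups alone (0.0743) and without Refed_478 and IRF.fl_Fast_523 together (0.0629). Between LIRFKO and IR floxed mice limma called 0 genes (0%), with 820 at an unadjusted p under 0.05, and leaving out Refed_524 gave 1.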

How the data were processed

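Liver RNA (200 ng per mouse, per the labels' protocols) was labelled with an Agilent Low Input Quick Amp kit and hybridised to two-colour arrays, and each dye channel was deposited as a sample. The deposited values are log2 intensities of single channels. Per the submitters' processing notes, limma 3.20.1 and R 3.1.0 were used. How background and dye were corrected is not given in the sources used here. Of 45220 features 33026 paired with 1 gene and 12194 with none. The probe with the highest mean over all columns represented each of 22485 genes, and 6138 genes had several probes. Column medians were 5.72 to 5.78, and the number of mice limits precision.

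limma 3.58.1 (statmod 1.5.0, R 4.3.3) fitted 1 mean per group over 37 libraries on 20 arrays of 5 slides, with a term for the dye and the shared array as random block (correlation 0.358). Within a comparison, p-values were adjusted over all genes (Benjamini-Hochberg), calls were made at 0.05, and differences between responses were contrasts of the same fit. The fit was tested on simulated data. 1 sample with conflicting labels was left out. Replicates were separate mice with different numbers.

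Members and gene lists were chosen with earlier results of these data known. Named genes were the 12 largest rises and 12 largest falls among called genes whose groups did not overlap and whose mean exceeded the median of all genes, up to 6 genes of smallest p per list, key genes of insulin action, up to 4 called differences each way, 6 acinar markers, and genes at the threshold. Predicted gene models were passed over, and genes named otherwise are said to be chosen after their values were seen. A level above 15.8 log2 counted as the top of the range. Promoters came from RefSeq. Alternatives were each library left out, no array block, slide as a block, no dye term, only the compared groups, the mean over probes, a filter on low genes, quantile normalization, another variance prior, and the library labelled 523 left out, alone or with 478.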

Additional observations from a re-analysis of the deposited data

Results flagged for a closer look

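In 12 of 119 values examined, 1 of the 4 refed mice stood far from the other 3, where chance flags about 1 in 20. Refed_478 was the one apart for Sqle (11.4 log2), Mvk (11.24), Pmvk (11.3), Aacs (10.04), Cyp26a1 (8.25) and Nfe2 (7.19), all below the other refed mice. It was also apart for the mean of sterol regulation and uptake (9.09, lowest) and for the means of the acinar markers (9.90, highest) and of the neutrophil markers (6.86, highest). Refed_468 was apart for Angptl8 (10.9, lowest), and Refed_524 for Baiap2l1 (8.35, highest) and Retreg1 (8.17, highest).

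The response differed between LIRFKO and LIRKO by the test of the difference for Ccr3 (-1.33), Dusp14 (-0.75), Sorbs3 (1.0), Tnfrsf12a (1.68) and Epdr1 (-0.75), and between LIRFKO and IR/FoxO1 floxed mice for Clic5 (-1.30), all in log2 with the adjusted p from limma given above.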

How the results depend on the processing

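The counts of called genes changed with the fit. The count of genes higher on refeeding in LIRFKO, 222, became 128 with no array block, 135 with slide as a fixed block, 14 with only the 7 compared libraries, and 51 to 209 with 1 of the 7 left out. The count of lower genes, 182, became 90 with no array block, 113 with no dye term, 18 with only the compared libraries, and 55 to 146 with 1 of the 7 left out. The 5 differences from LIRKO became 2 with no array block, 3 with no dye term, 3 with low genes filtered, 3 without library IRF.fl_Fast_523, 11 with another variance prior, and 2 to 12 with 1 library left out. The 1 difference from IR/FoxO1 floxed mice became 0 with slide as a block, 0 with low genes filtered, 0 with only the compared libraries, 0 without Refed_478 and IRF.fl_Fast_523 together, and 1 to 4 with 1 library left out, and the 0 differences from IR floxed mice became 0 to 1. Fgf21 turned from -1.03 to 0.35 within the array that mice Fast_519 and Refed_524 shared in opposite dyes, with no dye term. Of 64 called genes examined so, 47 remained called with no array block, 46 with slide as a block, 53 with no dye term, 11 with only the compared libraries and 28 to 51 with 1 of the 7 left out, and none of the 64 reversed under any of these. No paired analysis was possible because the fasted and refed mice carry different numbers. Where the count moved, the cause was not tested. Signal over background was not used here, so a limit of detection per gene is not given.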

Other observations

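Families chosen after the values were seen showed further groups of genes with calls, which are given as descriptions. Members named without a change were not all called without each library, and the ranges give how many were. Of 18 genes of the ER translocon and oligosaccharyltransferase, which import and glycosylate secreted proteins, 7 were called higher (Sec61b, Sec61g, Ssr1, Ddost, Rpn1, Ostc and Krtcap2) and 13 had refed libraries all above the fasted ones, with a median change of 0.46 log2, against 0.987% and 5.77% of all genes. With 1 library left out 3 (without Fast_519, Fast_525 or Refed_524) to 6 were called. Ostc was at 9.15, 9.78 and 9.44 log2 in Fast_518, Fast_519 and Fast_525 and at 10.52, 10.58, 10.66 and 10.61 in Refed_468, Refed_469, Refed_478 and Refed_524, a rise of 1.11 ± 0.18 (adjusted p = 0.00169, limma). All refed mice were nearly level and above all fasted ones. Of 14 Hsp90 cochaperones 7 were higher (Fkbp4, Stip1, Ppid, Cacybp, Chordc1, Ahsa1 and Cdc37l1) and 1 lower (Fkbp5), and leaving out 1 library left 1 higher (without Fast_525), 2 (without Fast_518) or 5 to 6. Of 10 p24 cargo receptors 3 were higher, with a median of 0.07, and leaving out 1 library left 1 (without Fast_518, Fast_519, Fast_525 or Refed_524) to 2.

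Of 15 tubulins, whose probes may share signal, 4 were called higher (Tuba1a, Tuba1c, Tubb4b and Tubb5), with a median of 0.73, against 0.987% of all genes called higher. The count was 3 without Refed_469, 1 without Refed_478 and 0 without any other LIRFKO library. Of the 6 MCM replication helicase subunits 2 were called higher (Mcm2 and Mcm3), with a median of 1.02, beside 0.66 in LIRKO, -0.12 in IR/FoxO1 floxed (0.13 without IRF.fl_Fast_523) and -0.05 in IR floxed mice. The count was 0 (without Fast_518, Fast_519 or Refed_524), 1 (without Fast_525 or Refed_468), 3 (without Refed_469) or 4 (without Refed_478). Mcm3 was at 6.91, 7.54 and 7.33 fasted and 8.31, 7.73, 8.0 and 8.75 refed, a change of 1.0 ± 0.22 (adjusted p = 0.0192, limma, lost without Fast_518, Fast_519 or Refed_524, up to 0.152, and with no array block, 0.0536). No gene was called in the proliferation list.

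Of 33 core autophagy genes 6 were called lower (Atg2a, Atg2b, Map1lc3b, Calcoco1, Retreg1 and Stx17) and none higher, 13 had refed libraries all below the fasted ones, and the median was -0.30, against 0.809% of all genes called lower and 5.81% without overlap on that side. Leaving out 1 library left 1 (without Fast_525), 2 (without Refed_524), 3 (without Fast_518, Fast_519 or Refed_468) or 4 (without Refed_469 or Refed_478). Retreg1, an ER-phagy receptor, was at 9.01, 9.50 and 9.08 fasted and 8.0, 8.03, 8.01 and 8.17 refed, and fell by 1.13 ± 0.26 on the log2 scale (adjusted p = 0.0208, limma, lost without Fast_519, Fast_525, Refed_468 or Refed_524, up to 0.12, and with slide as a block at 0.0546). Calcoco1, another autophagy receptor, fell by 0.84 ± 0.16 on the log2 scale (adjusted p = 0.00651, limma, lost without Fast_525 at 0.052).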
